A study of Mus musculus with 72 samples.

Results

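The strain comparison described here set whole brain of newborn DBA/2J mice against whole brain of newborn C57BL/6J mice, both taken from males at postnatal day 1 (P1). Its members are 6 of the 72 arrays of the series, 3 labelled D2_P1_brain and 3 labelled B6_P1_brain, and they were chosen by those titles alone. The series covers 3 inbred strains (C57BL/6J, DBA/2J and 129S2), brain and liver, and the stages E14.5, P1, P7 and P90. Per the labels, C57BL/6J and DBA/2J stock came from The Jackson Laboratory and 129S2 stock from Charles River; the P1 pups were the generation bred from that stock, were sexed molecularly, and received no treatment or engineered allele. Brains were frozen on dry ice after dissection, and total RNA was converted once to cDNA, labelled as biotinylated cRNA and hybridised to Affymetrix arrays. The 3 P1 brain arrays of 129S2 entered the fit for the spread and are given beside the other strains. The labels name replicates and do not say whether arrays came from separate litters, so p-values measure the spread between these samples only.

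C57BL/6J and DBA/2J are fully inbred strains that separated early in the history of laboratory mice, and they differ at a great many single bases and in copy number of whole segments. DBA/2J carries the dilute allele of the myosin gene Myo5a, and C57BL/6J is the strain of the reference genome. At P1 the mouse brain still makes glia and cerebellar granule cells, while most cortical neurons have been born and are extending processes and forming synapses. Short array probes read a transcript through its sequence, so a base difference under a probe and a difference in transcript amount cannot be told apart here; probe sequences were not used. In whole tissue, fewer cells of a type and less RNA per cell cannot be told apart either.

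The deposited values are log2 RMA signals, in which 1 unit is a 2-fold difference, and the median of an array's 45101 probe sets lay between 7.12 and 7.17 on the 9 P1 brain arrays. Over the genes tested, each array correlated on average at 0.984 to 0.989 with the other arrays of its strain. Over the same genes, C57BL/6J replicate 2 deviated most from its strain mean (SD of deviations 0.162, against 0.117 to 0.143 on the others). The deposited values carry no detection calls, so a gene was tested when the higher of the DBA/2J and C57BL/6J means exceeded the median of all values of the 9 arrays, 7.15. Levels of marker lists are given as description. They cannot check the tissue label, because only genes above the filter were averaged and no liver arrays were set beside them. The 22 tested genes of newborn neurons averaged 11.06 in DBA/2J and 11.07 in C57BL/6J, and the 16 tested progenitor genes 9.92 and 9.94. Of 14 listed red blood cell genes, 9 had a probe set carrying 1 gene symbol, and none of these exceeded the filter. The other listed ones were not read.

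Between the strains, 159 of 11900 genes tested (1.34%) were called, that is, passed an adjusted p of 0.05 in limma with a difference of at least 1.5-fold. In DBA/2J, 80 genes (0.672%) were higher and 79 (0.664%) lower. The difference was between 1.5- and 2-fold for 52 of the higher and 47 of the lower genes, and reached 4-fold for 5 and 10. The median over all tested genes was 0.01 on the log2 scale. The DBA/2J and C57BL/6J arrays lay fully apart for 13.2% of all genes tested; they also lay apart for all 159 called genes, which follows largely from the call itself. For 47 of the called genes the lower strain's mean lay under 7.15, and those folds are given as computed from values near the array's low end.

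**Figure D1:**
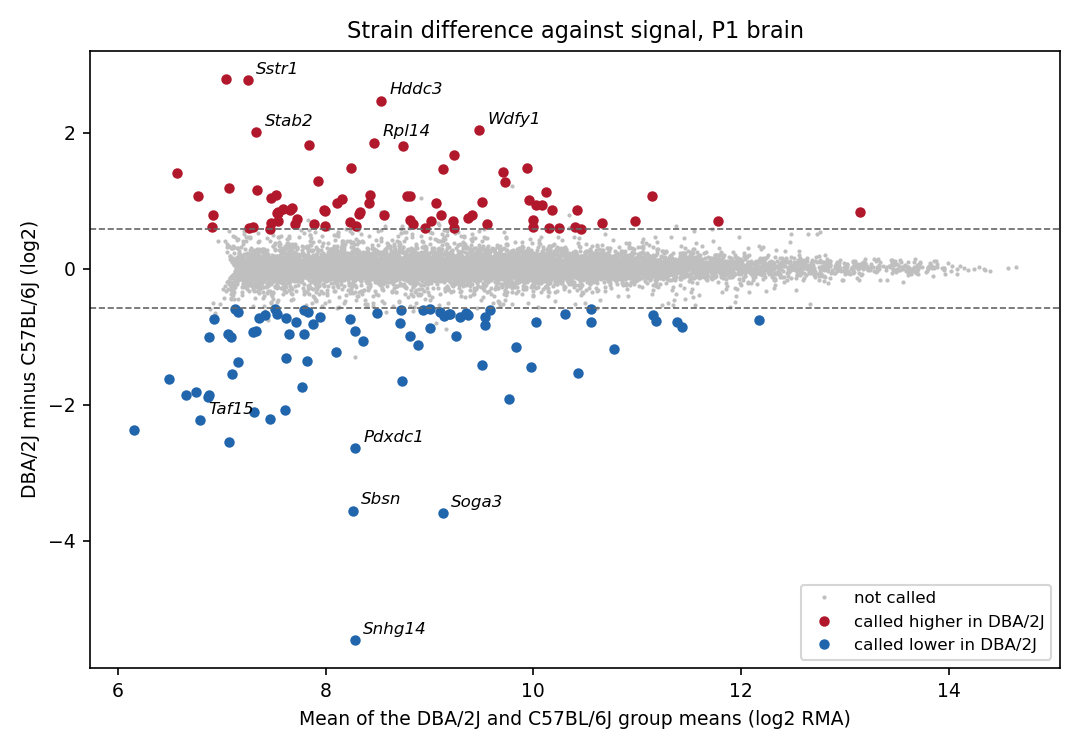
Each point is a gene tested in P1 brain; the x axis is the mean of the DBA/2J and C57BL/6J group means (log2 RMA) and the y axis their difference (log2, DBA/2J minus C57BL/6J). Dashed lines mark 1.5-fold; the 80 genes called higher are red, the 79 called lower are blue, and Snhg14 lies lowest at -5.46.

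Sstr1 and Gabra2, both receptors of nerve cells, were among the 12 highest named genes in DBA/2J. Genes with clone-like symbols were left out of that ranking and of the 12 lowest. Sstr1, a somatostatin receptor, read 8.26, 8.91 and 8.74 in DBA/2J and 5.92, 5.62 and 6.07 in C57BL/6J. All DBA/2J arrays lay above all C57BL/6J arrays, and the 129S2 mean of 8.45 lay with DBA/2J. The difference was 2.77 ± 0.18 (SE, 3 against 3 arrays; 6.82-fold, adjusted p = 2.8e-05). Gabra2, the alpha 2 subunit of the GABA-A receptor, read 10.27, 9.98 and 9.97 in DBA/2J and 8.27, 8.61 and 8.32 in C57BL/6J, a difference of 1.68 ± 0.17 (3.19-fold, adjusted p = 0.00042). C57BL/6J is known for an intronic deletion in this gene, and the 129S2 mean, 9.52, lay between the strains and nearer DBA/2J. Vip, vasoactive intestinal peptide, read 7.27, 8.01 and 7.72 in DBA/2J and 6.50, 6.58 and 6.37 in C57BL/6J, and was higher by 1.18 ± 0.16 (adjusted p = 0.0033). For Vip it was DBA/2J that stood alone, since 129S2 averaged 6.48.

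Several enzymes were also higher in DBA/2J. Alad makes porphobilinogen in the haem pathway, and its gene is known to be duplicated in DBA/2J. It read 10.61, 10.72 and 10.71 in DBA/2J and 9.36, 9.20 and 9.03 in C57BL/6J. The difference was 1.48 ± 0.10 (2.80-fold, adjusted p = 2.9e-05), and 129S2 lay between at 10.10. Glo1, which detoxifies methylglyoxal and lies in a duplication known from DBA/2J, was higher by 1.07 ± 0.10 (2.10-fold, adjusted p = 0.00023), with 11.85, 11.56 and 11.64 against 10.54, 10.70 and 10.59. The 129S2 mean of Glo1 was higher still, at 12.11. Hddc3, a phosphohydrolase, averaged 9.77 ± 0.19 in DBA/2J and 7.30 ± 0.18 in C57BL/6J (SD, n = 3 each), a difference of 2.47 ± 0.12 (5.55-fold). Slc15a2, a proton-coupled peptide transporter, was higher by 1.42 ± 0.11 by the probe set used and lower by its 2 other probe sets.

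The remaining genes of the 12 highest have varied roles; the clone-like AI506816, outside the ranking, differed by 2.79, above Sstr1. Stab2, a scavenger receptor for hyaluronan known from sinusoidal endothelium, read 8.34, 8.66 and 8.01 in DBA/2J, against 6.31, 6.26 and 6.42 in C57BL/6J and a 129S2 mean of 6.23. DBA/2J thus lay apart from both other strains (2.01 ± 0.16 against C57BL/6J, 4.02-fold). Wdfy1, an endosomal adaptor protein, was higher by 2.04 ± 0.11 and the zinc finger gene Zfp949 by 1.82 ± 0.12. Tmem87a, a membrane protein, was higher by 1.80 ± 0.19, and its 3 C57BL/6J arrays were widely spread (7.73, 8.37 and 7.43) while DBA/2J lay at 9.60 to 9.74. Rpl14, a protein of the large ribosomal subunit, was higher by 1.85 ± 0.11, Myh7, the beta myosin heavy chain, by 1.49 ± 0.12, and Rpa3, a subunit of the single-strand DNA binding complex, by 1.47 ± 0.12. Over the 12 genes the differences were 2.68- to 6.82-fold, and 129S2 was nearer DBA/2J for 7 and nearer C57BL/6J for 5.

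**Figure D2:**
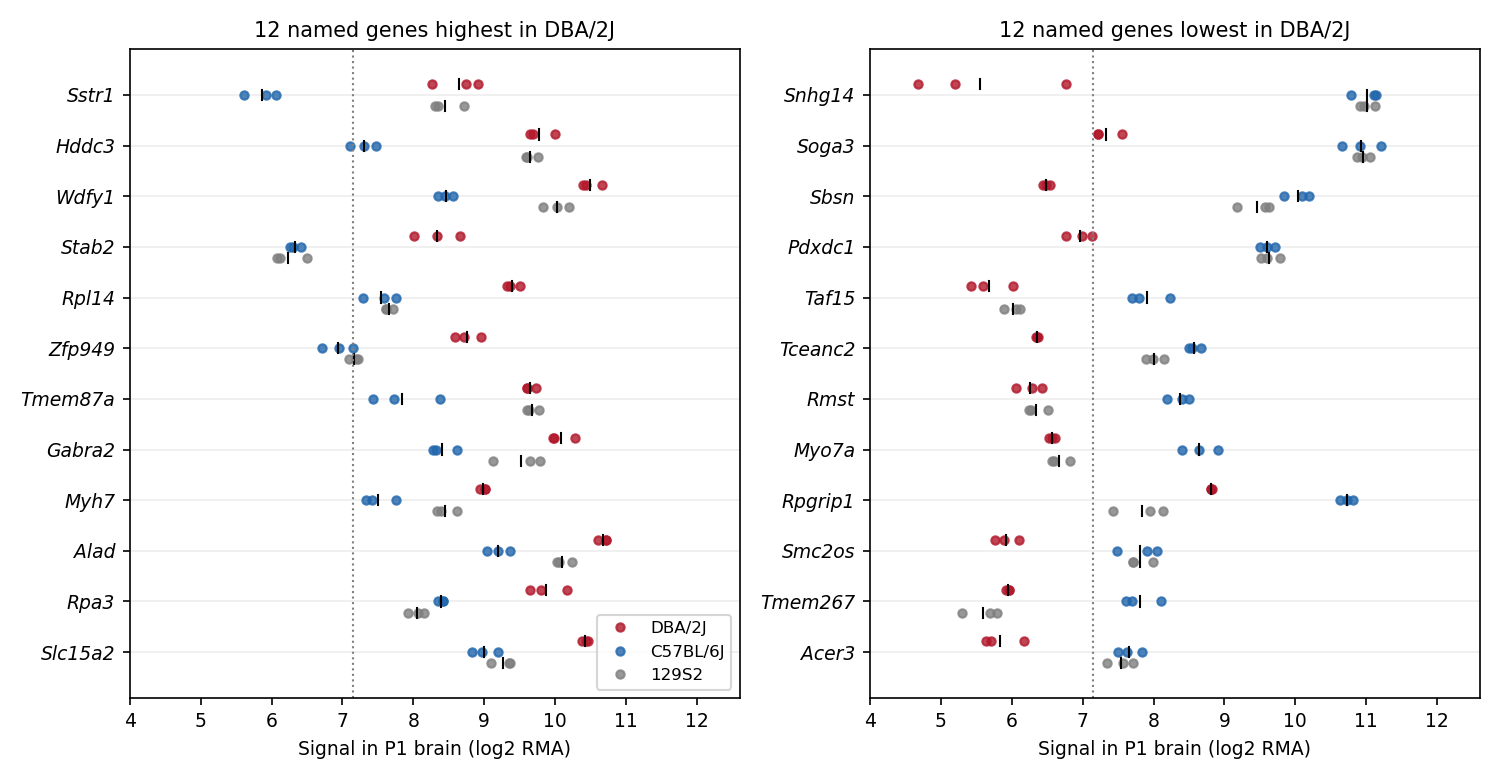
Signal (log2 RMA) of each of the 3 DBA/2J (red), 3 C57BL/6J (blue) and 3 129S2 (grey) P1 brain arrays for the 12 highest and 12 lowest named genes; black ticks are group means and the dotted line is the filter, 7.15. DBA/2J and C57BL/6J do not overlap for any of the 24 genes, and 129S2 is nearer DBA/2J for 7 of the highest and 5 of the lowest.

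Long noncoding RNAs were among the genes lowest in DBA/2J. Snhg14 is the long transcript of the imprinted Prader-Willi/Angelman region, the host of many snoRNAs, and runs antisense to Ube3a in neurons. It read 5.21, 4.68 and 6.76 in DBA/2J, 11.13, 11.11 and 10.78 in C57BL/6J and 11.00 on average in 129S2. DBA/2J replicate 3 lay above the other DBA/2J arrays, and all 3 lay far below both other strains (-5.46 ± 0.41, 44.0-fold, adjusted p = 6.2e-05). Its only other probe set above the filter differed by -0.43 and was not called. Rmst, a noncoding RNA of neural differentiation, read 6.28, 6.43 and 6.06 in DBA/2J and 8.40, 8.50 and 8.20 in C57BL/6J (-2.11 ± 0.12). Here 129S2, at 6.34, lay with DBA/2J. Smc2os, a transcript opposite Smc2, differed by -1.89 ± 0.15.

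Of the protein-coding genes, Soga3, a microtubule-associated protein, was lower by the widest margin. Its arrays read 7.22, 7.22 and 7.56 in DBA/2J and 11.21, 10.66 and 10.90 in C57BL/6J (-3.59 ± 0.14, 12.1-fold, adjusted p = 9.6e-07), with 129S2 at 10.95. A further Soga3 probe set differed by -0.58 and was not called. Sbsn, suprabasin, a secreted protein known from skin, differed by -3.56 ± 0.13 and by -2.98 on a further probe set, so both readings placed DBA/2J lower. Taf15, an RNA-binding protein of the FET family, read 5.43, 5.60 and 6.02 in DBA/2J and 7.79, 8.24 and 7.69 in C57BL/6J (-2.22 ± 0.17), and 129S2 lay with DBA/2J at 6.02. Myo7a, the myosin of sensory hair cells, differed by -2.08 ± 0.12, the elongation factor relative Tceanc2 by -2.21 ± 0.08 and the alkaline ceramidase Acer3 by -1.82 ± 0.16.

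Rpgrip1, a protein of the photoreceptor cilium, read 8.81, 8.82 and 8.81 in DBA/2J and 10.63, 10.73 and 10.82 in C57BL/6J (-1.91 ± 0.15, 3.76-fold). The DBA/2J arrays were nearly equal, and the 129S2 mean, 7.84, was lower than both. H2-D1, a class I histocompatibility gene, read 8.78, 8.85 and 8.77 in DBA/2J, 10.32, 10.01 and 10.30 in C57BL/6J and 10.10 on average in 129S2 (-1.41 ± 0.09). DBA/2J carries the d haplotype of this locus and C57BL/6J the b haplotype. The H2 genes are near-identical copies of each other, and the further H2-D1 probe sets went both ways: -1.35 on 1, and 1.14, 1.21 and 0.86 on the other 3. Averaged over its probe sets, H2-D1 differed by -0.14 and was not called (adjusted p = 0.59).

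Gene lists for pathways, cell types and known variants held 14 called genes among the 439 listed genes tested (3.19%, against 1.34% of all genes tested). Of 20 tested genes at copy number loci or known strain variants, Glo1, Alad, Hdhd3, Gabra2 and Wdfy1 were called higher and Rpgrip1 lower, with a list median of 0.06. This list was drawn up from what is known of these strains, so its count is not independent of that knowledge. The other loci gave small differences: Ide 0.04 ± 0.10, Btaf1 0.07 ± 0.12, Btbd9 -0.01 ± 0.08, Dnah8 0.05 ± 0.08 and Fgfbp3 -0.02 ± 0.13. Myo5a, the dilute gene, differed by -0.37 ± 0.15 and was not called (adjusted p = 0.43). Hdhd3, a hydrolase beside Alad, differed by 0.61 ± 0.09, just past 1.5-fold; without DBA/2J replicate 1 it differed by 0.56, and without C57BL/6J replicate 3 by 0.55, under the fold required. Galc, the galactosylceramidase of myelin breakdown, separated 129S2 instead: the strains compared differed by 0.04 ± 0.16, at 8.77 and 8.73 on average, and 129S2 read 6.28.

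In the lists of nerve cell genes the called members were Gabra2, Sstr1, Vip and Pcdhb3. Over all genes tested, 1.34% were called. Of 22 receptor subunits for glutamate and GABA, Gabra2 was called and the list median was 0.15, against 0.01 over all genes. Of 27 listed neuropeptides and receptors, Sstr1 and Vip were called, while Sst, the ligand of Sstr1, differed by 0.08 and Sstr2 by -0.02. Trhr, a neuropeptide receptor off the list, was called higher as well. Of 13 clustered protocadherins, the cell-recognition proteins of neurons, Pcdhb3 was called (8.33, 8.42 and 8.48 against 7.61, 7.68 and 7.37; 0.86 ± 0.11, adjusted p = 0.0018). The list median was 0.26, and Pcdhb22 (0.62), Pcdhb12 (0.50) and Pcdhb17 (0.49) did not pass the test; these genes are close copies in a cluster, so their probe sets may read more than 1 of them. Among 24 synapse genes, 23 voltage-gated channels and 22 genes of new neurons, none was called by limma, with medians of 0.08, 0.02 and -0.06; 1, 4 and 3 of them had an unadjusted p under 0.05.

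Listed genes of other cell types and states were mostly not called, where 1.34% of all genes tested were called. Limma called none of 27 listed cell cycle genes (1 at an unadjusted p under 0.05), 16 progenitor genes (2), 13 astrocyte genes (2) or 13 oligodendrocyte genes (1). The lists do not hold every gene of a type. Ccnd1 (0.97), Nek2 (-0.96) and Ncapd2 (-1.23), cell cycle genes off the list, were called on the probe set used. Their further probe sets above the filter were not called. None was called either of 14 listed endothelial genes (0), 12 fibroblast genes (1) or 10 choroid plexus genes (1). Off that list, the endothelial genes Plvap and Arhgef15 were called higher in DBA/2J. Arhgef15 differed by 1.09, and by 0.62 on a further probe set that was also called. Plvap was called higher at the other brain stages too (0.92 at E14.5, 1.02 at P7 and 0.76 at P90). The 11 microglia and macrophage markers had a median of -0.16, none was called, and 3 had an unadjusted p under 0.05. The complement genes C1qb (-0.69) and C1qc (-0.63) lay lowest and P2ry12 highest (0.41). With the replicate number as a block, 2 microglial genes were called. Zic1, a transcription factor of dorsal midbrain and cerebellum, was the single called gene of 6 for cerebellum and hindbrain. It read 10.95, 10.72 and 10.71 in DBA/2J and 11.25, 11.78 and 11.68 in C57BL/6J (-0.78 ± 0.16, adjusted p = 0.032). The call was lost without DBA/2J replicate 1, 2 or 3 or C57BL/6J replicate 2 or 3 (differences of -0.67 to -0.85), and with the replicate block (adjusted p = 0.054). Of 19 ribosomal protein genes, Rpl14 was called higher and Rps6 lower (-0.66 ± 0.10), and both have many processed copies in the genome that their probe sets could also read. Rpl14 averaged 9.40 in DBA/2J and 7.54 in C57BL/6J, and Rps6 8.17 and 8.83. Both lay far under the average of the 19 genes, 12.79 in DBA/2J and 12.72 in C57BL/6J. None of 30 oxidative phosphorylation genes (0 at an unadjusted p under 0.05), 20 listed imprinted genes (3), 16 clock genes (1) or 14 immediate early genes (1) was called. The same held for 19 heat shock and hypoxia genes (3), 11 interferon response genes (1) and 11 genes of hypothalamus, thalamus and striatum (1). Acer3 was the single called gene of the 20 listed for lipid metabolism. Off these lists, Snhg14 of an imprinted region and the small heat shock gene Hspb6 were called lower. Of lipid metabolism genes off the list, Lpin1 (-0.92) was called lower and Lpl (0.70) and Pla2g7 (0.72) higher.

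A gene's value rests on 1 probe set, and other probe sets of the same gene read the same RNA at other places. Of the 159 called genes, 62 had a further probe set above the filter, and for 25 of them (40.3%) a further one was called the same way. The share was 16 of 30 (53.3%) for genes higher in DBA/2J and 9 of 32 (28.1%) for genes lower, a difference that was not tested. Glo1 was called higher on all 4 of its probe sets (further differences of 1.08, 0.67 and 1.20), and Wdfy1 on 3 (1.67 and 1.93). Alad's further probe set differed by 0.43 and was not called, and those of Gabra2 by 1.46, which was called, and 0.84, which was not. With all probe sets of a gene averaged, low ones included, the difference of Hddc3 was 1.21, of Wdfy1 1.22, of Gabra2 0.93, of Alad 0.95, of Sbsn -2.18, of Soga3 -2.09 and of Snhg14 -1.99, and all 7 were still called.

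For 7 genes a further probe set was called the other way. Slc15a2 was higher by 1.42 on the probe set used and lower by 1.20 and 1.63 on the others, so no direction can be given for its transcript. Pdxdc1, a decarboxylase-like enzyme, read 7.13, 6.99 and 6.76 in DBA/2J and 9.72, 9.50 and 9.60 in C57BL/6J (-2.64 ± 0.11), whereas another probe set gave 2.92 and the remaining ones -0.65 and -0.87; their average was not called (-0.31, adjusted p = 0.21). Paip1 was lower by 0.68 and higher by 2.01 on each of 2 others. H2-D1, Gadd45gip1 (-0.80 and 1.16), Camk4 (-0.59 and 0.69) and 1500011B03Rik (-1.18 and 0.94) are the other 4, named after their values were seen.

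**Figure D3:**
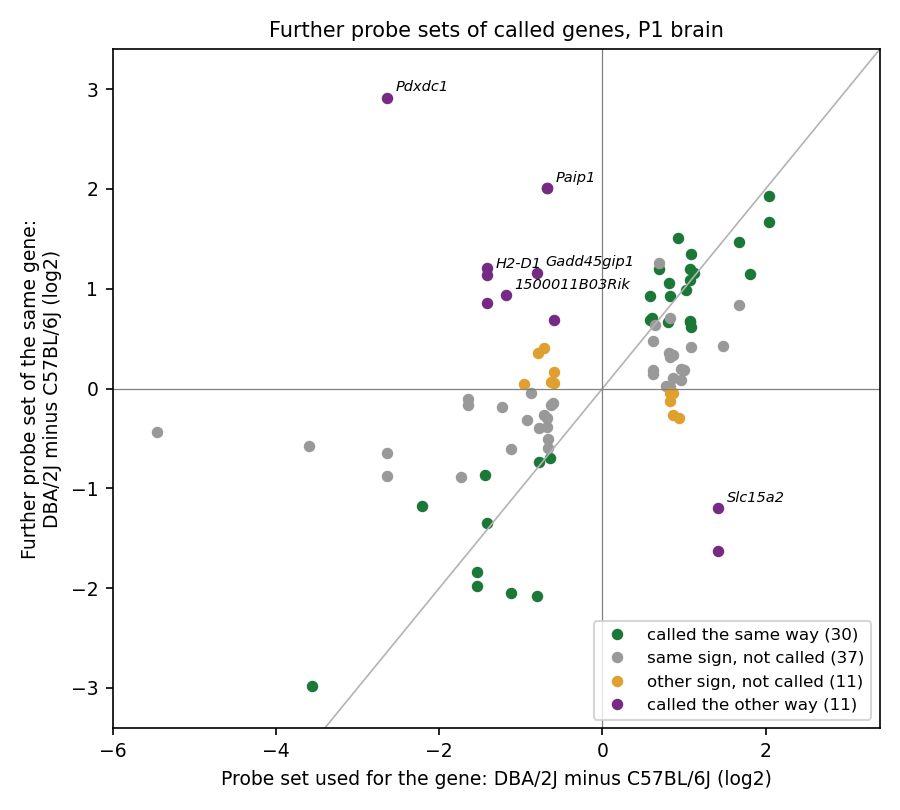
Each point is a further probe set of a called gene; the x axis is the difference (log2, DBA/2J minus C57BL/6J) on the probe set used for that gene and the y axis the difference on the further one. Of these probe sets, 30 were called the same way (green) and 11 the other way (purple); of those not called, 37 had the same sign and 11 the other.

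Called genes that sit next to each other were sought because the series concerns segmental copy number. Among the 158 called genes with a position in RefSeq (GRCm38.p6), 16 formed 7 runs of neighbours called in the same direction with starts within 1 Mb. The longest held 4 genes on chromosome 13, from 119428331 to 119654359, all lower in DBA/2J. Tmem267 there read 5.96, 5.91 and 5.97 in DBA/2J and 7.70, 7.61 and 8.10 in C57BL/6J (-1.86 ± 0.15, 3.62-fold), a call lost when all 36 brain arrays were fitted together (adjusted p = 0.086). 4833420G17Rik read 9.68, 9.62 and 9.68 against 11.34, 11.07 and 11.17 (-1.53 ± 0.09), and its further probe sets differed by -1.98 and -1.84. Paip1, which stimulates translation through the poly(A)-binding protein, and Ccl28, a mucosal chemokine, were lower by 0.68 and 0.59. In all 4 genes the 129S2 mean lay nearer DBA/2J than C57BL/6J (5.59 for Tmem267 and 9.83 for 4833420G17Rik), so C57BL/6J stood apart.

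The segment starts 92.8 kb beyond the lower end of Nnt, the mitochondrial transhydrogenase, in which C57BL/6J carries a known exon deletion. Nnt itself read 9.73, 9.53 and 9.58 in DBA/2J and 9.26, 9.79 and 9.04 in C57BL/6J, which overlap (0.25 ± 0.17, adjusted p = 0.84). On the far side, the 4 probe sets above the filter of Hmgcs1, an enzyme of cholesterol synthesis, differed by 0.05 to 0.17 and were not called. The readings within the segment were not uniform. The 2 Paip1 probe sets at 2.01 went against its other 2, and Ccl28 lost its call without DBA/2J replicate 2 or 3 or C57BL/6J replicate 1 or 3 (differences of -0.50 to -0.62).

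**Figure D4:**
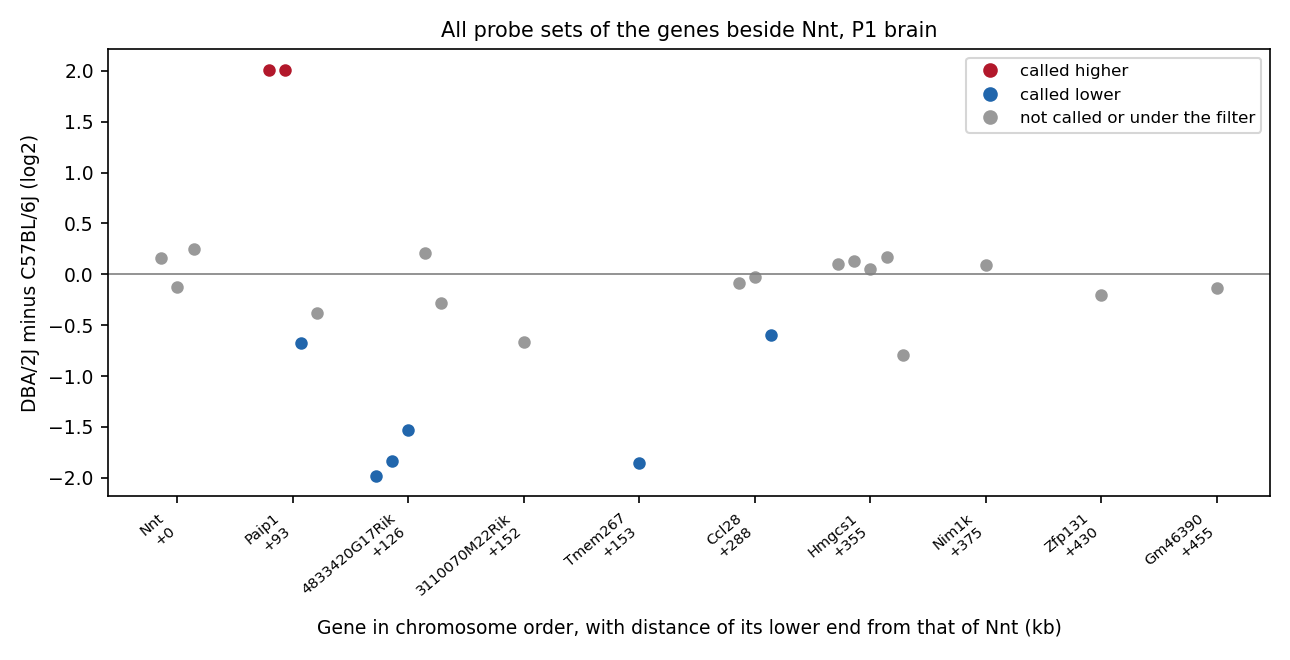
Difference (log2, DBA/2J minus C57BL/6J) of every probe set of Nnt and of the genes beside it on chromosome 13, in chromosome order, with the distance of each gene's lower end from that of Nnt in kb. Points are red where called higher, blue where called lower and grey otherwise; 2 Paip1 probe sets lie at 2.01, while Tmem267 and the called probe sets of 4833420G17Rik lie between -1.98 and -1.53.

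The other runs were pairs. On chromosome 11, the mitochondrial ribosomal protein gene Mrpl55 (8.75, 8.45 and 8.69 against 9.11, 9.40 and 9.21; -0.61 ± 0.11) and the noncoding 2610507I01Rik (6.51, 6.51 and 6.40 against 8.07, 7.62 and 7.84; -1.37 ± 0.11) were both lower. RefSeq places their starts head to head, 54 bases apart. The stretch between them, chr11:59202432-59202485 on the plus strand of GRCm38.p6, is shown because both transcripts begin at its ends and both differed. Capitals mark the GC box, the core of the Sp1 site, searched as GGGCGG on both strands.
Mrpl55: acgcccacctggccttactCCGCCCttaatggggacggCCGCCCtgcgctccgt
On chromosome 4, Alad and Hdhd3 lie side by side on the minus strand and were both higher. The 250 bases before the start of each are shown for comparison, Alad at chr4:62520064-62520313 and Hdhd3 at chr4:62502201-62502450, read on the minus strand from RefSeq. Capitals mark the same GC box, the CCAAT box by those letters, and the TATA box. This last was searched as TATAAA, again on both strands, and no matches overlapped.
Alad: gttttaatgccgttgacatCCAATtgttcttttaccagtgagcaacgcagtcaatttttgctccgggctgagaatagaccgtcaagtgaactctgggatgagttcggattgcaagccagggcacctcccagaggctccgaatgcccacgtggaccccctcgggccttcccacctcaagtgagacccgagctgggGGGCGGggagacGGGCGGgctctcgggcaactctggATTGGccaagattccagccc
Hdhd3: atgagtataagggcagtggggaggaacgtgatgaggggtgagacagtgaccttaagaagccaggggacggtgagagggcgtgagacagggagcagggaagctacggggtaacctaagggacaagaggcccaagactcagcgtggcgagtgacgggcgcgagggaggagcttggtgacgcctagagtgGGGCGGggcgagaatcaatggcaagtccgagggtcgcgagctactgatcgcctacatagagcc
The Alad window held 2 GC boxes, 2 CCAAT boxes and no TATA box, and the Hdhd3 window a single GC box. Of 32851 RefSeq windows of that length, 32.7% held a GC box, 33.8% a CCAAT box and 12.4% a TATA box, so these letters are common. A match describes the reference strain's sequence and says nothing of binding.

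Among the remaining pairs, Ooep and Dppa5a, genes known from oocytes and early embryos that lie together on chromosome 9, were lower by 0.97 and 0.93. Mal2, a membrane trafficking protein, and Ccn3, a secreted matrix protein, were higher by 0.72 and 0.61 on chromosome 15. Pus7, a pseudouridine synthase, was higher by 0.70 beside AI506816, which read 8.24, 8.61 and 8.45 in DBA/2J and 5.69, 5.45 and 5.79 in C57BL/6J (2.79 ± 0.13). Gprc5b, an orphan receptor, and Thumpd1 were higher by 0.86 and 0.60 on chromosome 7. The number of runs fell from 7 to 3 without DBA/2J replicate 3. By chromosome, the share called was highest on chromosome 14, with 14 of 408 tested genes (3.43%), 7 in each direction. Over all genes tested it was 1.34%, and the chromosome was picked after the values were seen.

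Most strain differences of P1 brain were also read at other brain stages, each normalized and fitted on its own arrays. At P7, all 153 of them that were tested differed with the same sign and 112 were called in that direction, where 1.63% of all genes were called at all. At E14.5, 141 of 144 had the same sign and 81 were called that way (background 2.03%). At P90, 128 of 139 had the same sign, 82 were called the same way and 1 the other way (background 2.26%). The same call was made at all 3 other stages for 48 genes, 20 higher and 28 lower, and at none of them for 25, of which 16 were higher and 9 lower. A gene not tested at a stage counts as not called there. The 25 thus include genes under the filter at some stages, and Cma1 and Cpa3, which were tested at none of the 3. Snhg14 differed by -5.84 at E14.5, -5.19 at P7 and -2.24 at P90, and Tmem87a by 1.95, 2.05 and 2.62. Rmst was furthest apart at E14.5 (-4.21) and differed by -1.68 at P7 and -1.48 at P90.

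Whether a difference at P1 departed from the mean of the other brain stages was tested directly over the 24 brain arrays of both strains. Of 13001 genes, 14 (0.108%) were called, 12 with a positive and 2 with a negative departure. Gabra2 differed by -0.01 at E14.5, 1.68 at P1, 1.46 at P7 and 1.15 at P90, so the strains were near equal before birth and apart at each later stage (departure 0.81 ± 0.16, adjusted p = 0.032). Gabra5, another GABA-A receptor subunit, differed by -0.99, 0.27, -0.04 and -0.42 at the same stages (departure 0.75 ± 0.14). Mal2 differed by -1.41, 0.72, 0.25 and -1.04 (departure 1.45 ± 0.23), and its P1 call was lost when all 36 brain arrays were fitted together (adjusted p = 0.061). Its E14.5 difference was read with both strains' means under the filter of that set, and it enters the departure. Cma1 and Cpa3, proteases of mast cell granules, were higher at P1 by 1.41 and 1.04 and by at most 0.58 at the other stages (departures 1.15 ± 0.14 and 1.01 ± 0.18).

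The calls of these departures were fragile. There was 1 call with the replicate number as a block, 7 without DBA/2J replicate 3 and 3 without C57BL/6J replicate 3. Fam107a, an actin-bundling protein of glia and neurons, had the largest negative departure (-1.63 ± 0.31). Its E14.5 difference of 0.67, which enters that departure, was read with both strains' means under the filter of the set. At P1 Fam107a read 6.90, 7.00 and 6.83 in DBA/2J and 9.20, 8.99 and 7.74 in C57BL/6J, with C57BL/6J replicate 3 between the groups. Leaving out any DBA/2J array, or C57BL/6J replicate 1 or 2, ended the call of this departure (-1.35 to -1.68). Pttg1, securin, had a departure of 1.01 ± 0.19 although its P1 difference, 0.32 ± 0.13, was not called; it differed by 1.68 at E14.5 and -3.38 at P90.

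**Figure D5:**
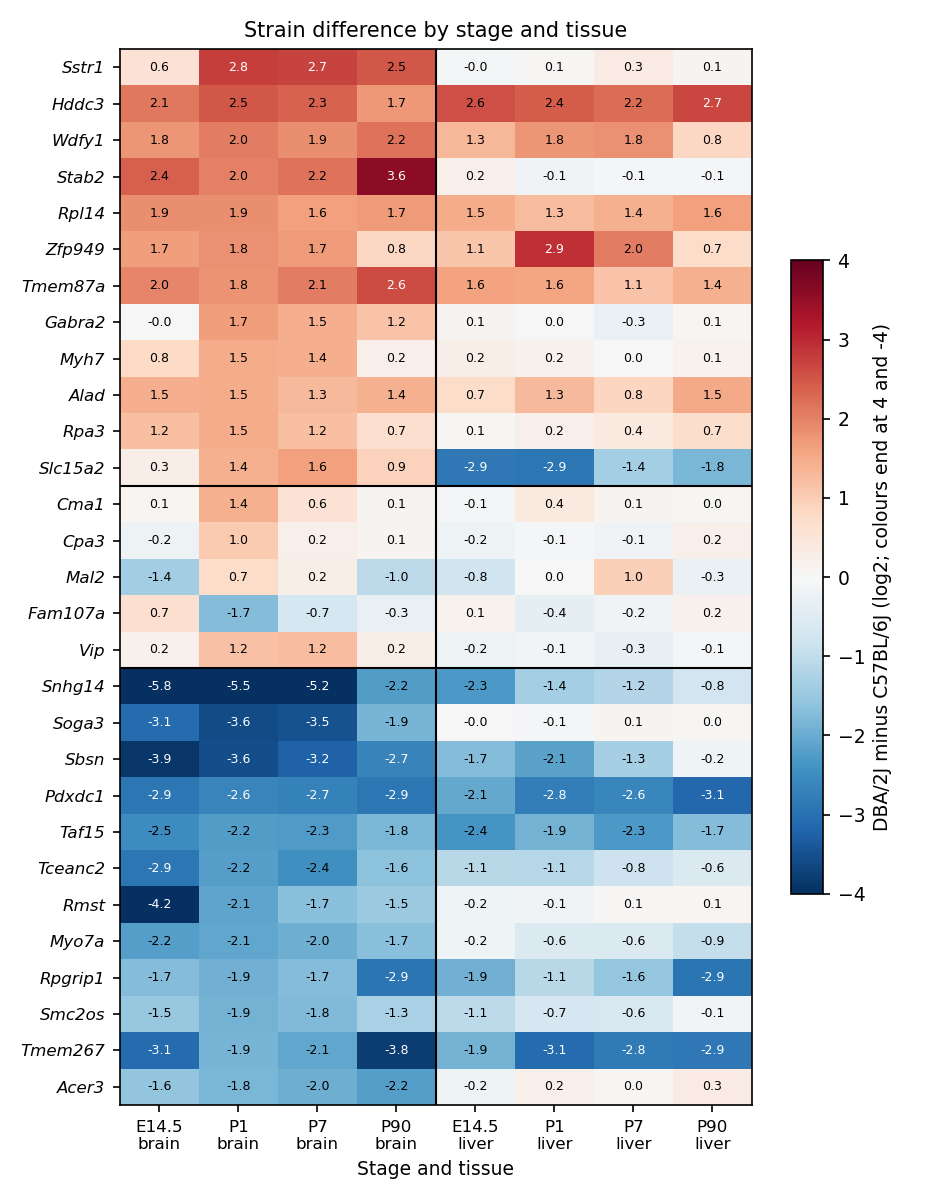
Difference (log2, DBA/2J minus C57BL/6J) of the 12 highest genes, 5 further genes and the 12 lowest genes of P1 brain in each of the 8 tissue and stage sets; red is higher and blue lower in DBA/2J, and colours end at 4 and -4. In brain, Gabra2 is near 0 at E14.5 and Snhg14 is negative at all 4 stages, and Slc15a2 is negative in liver at all 4 stages. Cells are drawn whether or not a gene passed the filter of the set. Gabra2 and Snhg14 lay under it in every liver set.

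In liver of the same age, 124 of the 159 genes were tested, 104 had the same sign, and 58 were called in the same direction and 3 in the other, with 6.98% of all genes called there. At E14.5, P7 and P90, liver gave 48 of 120, 55 of 124 and 53 of 111 called the same way, with backgrounds of 5.22%, 4.46% and 5.62%. The labels do not say whether brain and liver came from the same pups. Testing the difference between tissues over 12 arrays called 575 of 13684 genes (4.2%), 58 of them among the 159. Stab2 differed by 2.01 in brain and -0.13 in liver (departure 2.14 ± 0.25), so its strain difference was read in brain and not in liver. Sstr1 differed by 2.77 and 0.05 (2.72 ± 0.21), Soga3 by -3.59 and -0.07 (-3.53 ± 0.21), and Snhg14 by -5.46 and -1.36 (-4.10 ± 0.53). For Sstr1, Soga3 and Snhg14 both strains' means lay under the filter of the liver set. Their departures therefore say nothing of a strain difference in liver. Slc15a2 differed by 1.42 in brain and -2.90 in liver on the same probe set (4.32 ± 0.33). Its 2 other probe sets were called lower in brain (-1.20 and -1.63). Pla2g7, a phospholipase that degrades platelet-activating factor, was higher by 0.72 in brain and lower by 1.95 in liver (2.68 ± 0.23). By contrast, Hddc3 differed by 2.47 and 2.43, Rpl14 by 1.85 and 1.26 and Pdxdc1 by -2.64 and -2.77 in brain and liver. Another Pdxdc1 probe set differed by 2.92 in brain. The count of departing genes fell to 222 with the replicate block, and to 311, 366 and 339 without DBA/2J replicate 1, 2 or 3, and 374 and 276 without C57BL/6J replicate 1 or 3.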

How the data were processed

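Each tissue and stage set of the series holds 9 arrays, and the values analysed here are those of the 9 P1 brain arrays, with the other brain sets and P1 liver where named. The authors deposited log2 signals, made with RMA per the submitters' processing notes; its version is not given in the sources used here. Within the P1 brain set 2.01 to 3.71% of values were equal between arrays and 0 between sets, so the authors normalized sets apart and strains were compared within a set. Of 45101 probe sets, 34958 carried 1 gene symbol in the platform annotation, 932 several and 9211 none; symbols were updated through RefSeq GRCm38.p6 (34754 probe sets by gene identifier, 143 by symbol). For each of 18194 genes the probe set of highest mean on the 9 arrays was used. A mean for each strain was fitted with limma 3.58.1 in R 4.3.3 (6 residual degrees of freedom), two-sided, with Benjamini-Hochberg adjustment over all genes tested; genes were called at an adjusted p under 0.05 and at least 1.5-fold. Errors are standard errors of the fitted difference. Departures were fitted over 24 brain arrays and over 12 P1 arrays of DBA/2J and C57BL/6J.

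The genes named are the 12 highest and 12 lowest called genes without overlap between the strains' arrays, the called members of gene lists, runs of at least 3 neighbours, the 6 highest and 6 lowest called departures from other stages and from liver, and genes of copy number loci. Clone-like symbols were counted (18 called) and named only in runs. Members of pairs, further probe sets, mast cell genes and called genes off the lists were named after their values were seen. The comparison and the lists were chosen with earlier results of these data known. The fit was tested on simulated data. Promoter windows came from a RefSeq table (GRCm38.p6); no whole genome, protein or probe sequences were used.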

Additional observations from a re-analysis of the deposited data

Results flagged for a closer look

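These results stand apart because a test of the difference between stages or tissues was passed in limma, at an adjusted p under 0.05 and at least 1.5-fold. Against the mean of the other brain stages, the signed P1 difference (DBA/2J minus C57BL/6J) departed upward by 1.45 for Mal2, 1.15 for Cma1, 1.01 for Pttg1, 1.01 for Cpa3, 0.81 for Gabra2 and 0.75 for Gabra5. For Pttg1 and Gabra5 the P1 difference itself was small and not called (0.32 and 0.27), and the other stages lay lower on average. The departure was -1.63 for Fam107a and -0.79 for Prune2, a gene that at P1 was not called (-0.58 ± 0.16) and at P90 was higher in DBA/2J by 1.32. Both strains' means lay under the filter of the set at E14.5, P7 and P90 for Cma1 and Cpa3. The same held at E14.5 for Mal2 and Fam107a.

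Against P1 liver, the brain difference was higher by 4.32 for Slc15a2, 2.72 for Sstr1, 2.68 for Pla2g7 and 2.14 for Stab2. The value for Slc15a2 holds for the probe set used. Its 2 other probe sets were called lower in brain (-1.20 and -1.63). Sstr1 was under the filter in liver, so its departure says nothing of liver. The departures of the cytochrome Cyp2c23 (2.27) and the monocarboxylate transporter relative Slc16a5 (2.14) restate liver differences of -2.36 and -2.01: both genes were below the filter in brain, entered through liver and say nothing of brain. The call for Slc16a5 was lost without any single DBA/2J or C57BL/6J replicate (2.03 to 2.21).

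The brain difference was lower than that of liver by a log2 departure of -4.10 for Snhg14 and -3.53 for Soga3. Both genes were under the filter in liver, so their departures say nothing of liver. The sulfotransferase Sult3a1 had a departure of -4.83, the Ras-association gene Rassf4 -3.23, the interferon-inducible Ifi202b -3.10 and the signalling adaptor Pik3ap1 -2.88. These 4 were not tested in brain, where both strains' means were under the filter. They entered through liver, where they were higher in DBA/2J by 3.12 to 4.83, and the departures say nothing of brain.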

How the results depend on the processing

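The count of 159 called genes lay between 129 and 159 when any single DBA/2J or C57BL/6J array was left out. Arrays of 129S2 were not left out in turn. It lay between 136 and 191 with all genes tested, probe sets averaged or chosen over all arrays, or quantile or median scaling. With array weights, a trended variance, the 6 arrays alone or all brain arrays, the count also lay in that range. It was 83 (44 higher, 39 lower) with a stricter filter, 256 with every probe set tested (136 lower), 60 at 2-fold (28 higher, 32 lower) and 232 with no fold minimum (125 higher). Left-out arrays gave 62 to 85 higher and 64 to 77 lower genes. Called list members fell from 14 to 8 with the stricter filter. Neighbouring runs, 7 in all, numbered 2 with the stricter filter, 11 over all probe sets, 1 at 2-fold and 3 to 6 with an array left out. Genes with a further probe set called the same way numbered 15 with the stricter filter and 11 at 2-fold, against 25. Averaging a gene's probe sets turned Slc15a2 to -0.47 and Paip1 to 0.74 and ended the calls of H2-D1, Pdxdc1, Zic1 (-0.59) and Fam107a (-0.91). By the called probe set of largest difference Slc15a2 was -1.63, Paip1 2.01 and Pdxdc1 2.92. Snhg14 was -0.43 and not called with the probe set chosen over all 72 arrays. Departures from other stages numbered 7 with probe sets averaged and 3 to 17 with an array left out, against 14; departures from liver numbered 276 to 429, against 575. The cause of these shifts was not tested.

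Replicate numbers were not taken to pair the DBA/2J and C57BL/6J samples: deviations of same-numbered DBA/2J and C57BL/6J arrays correlated at -0.45, -0.51 and 0.45. Those of C57BL/6J and 129S2 correlated at 0.51, 0.58 and 0.47, and DBA/2J replicates 1 and 2 correlated best with C57BL/6J replicates 2 and 1 (0.62 and 0.64), a hint from the data and not the design. With the number as a replicate block 158 genes were called, 150 of them among the 159, and departures numbered 1 from other stages and 222 from liver; Zic1 (adjusted p = 0.054) and Cpa3 (adjusted p = 0.057) lost their calls. Signals near the array's low end limit folds, and 3 arrays a strain limit the precision. The share of further probe sets was not recomputed under other choices of probe set.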

Other observations

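Of the mast cell genes examined, Cma1 and Cpa3 were called higher in DBA/2J at P1. A list of 13 mast cell genes was drawn up after Cma1 and Cpa3 had been seen, and 12 had probe sets carrying 1 gene symbol, 17 in all. On 5 probe sets all DBA/2J arrays lay above all C57BL/6J arrays; over all genes, 13.2% did not overlap in either direction. Of the 5 genes tested, the only ones called were the 2 that prompted the list, against 1.34% of all genes. Cma1, mast cell chymase, read 7.42, 7.19 and 7.22 in DBA/2J and 5.81, 6.06 and 5.73 in C57BL/6J. Cpa3, carboxypeptidase A3, read 8.47, 7.58 and 7.95 against 6.86, 7.23 and 6.78; it lost its call without DBA/2J replicate 1 or 3 or C57BL/6J replicate 1 or 3 (0.81 to 1.07). Mcpt2 differed by 0.94 and Mcpt4 by 0.50, both below the filter, and Tpsb2 by 0.56, under 1.5-fold, and by 0.06 on its other probe set. In P1 liver Mcpt2 differed by 0.98. The receptor genes Kit, Fcer1a and Ms4a2 differed by at most 0.03 on each of their probe sets, Tpsab1 by 0.06, Mcpt1 by -0.04, Gata2 by -0.13 and -0.11, and Hdc by -0.03 and -0.22. At E14.5 and P90, Cma1 differed by 0.07 and 0.12, with both strains' means under the filter of the set.

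Of 265 tested zinc finger genes with a numbered Zfp symbol, 5 were called higher and 8 lower (4.91%), against 1.34% of all genes; many are close copies, and the group was formed after the values were seen. Of 78 tested mitochondrial ribosomal protein genes, also grouped afterwards, 3 were called lower on the probe set used, Dap3 (-0.79), Mrpl55 (-0.61) and Gadd45gip1 (-0.80, but 1.16 on a further probe set), and the median over the 78 was 0.07. One gene on the list of neuropeptides, Pmch, melanin-concentrating hormone, differed by -1.31 without passing the test (adjusted p = 0.70).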
